A study of Mus musculus with 20 samples.

Results

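The genes of gluconeogenesis and glycogen turnover described here were Pck1, Pck2, Pcx, Fbp1, Slc37a4, Slc2a2, Gys2, Pygl and Ppargc1a. They were chosen by symbol for their known roles in hepatic glucose output, with earlier results of these data known. These 9 genes were among 50559 gene rows in the count tables. All 9 were among the 14333 genes that passed the expression filter of at least 1 CPM (reads of a gene scaled to the size of the library) in 5 or more libraries.

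RNA sequencing was performed on individual mouse liver tumors and on control livers, in 20 libraries. The study asked whether FGF19, an intestinal hormone that represses bile acid synthesis, and its analog Aldafermin, which carries changes near the N-terminus of FGF19, act with MYC in liver carcinogenesis. Female wild-type C57Bl6J mice were injected at 6 to 8 weeks of age with plasmids by hydrodynamic gene transfer, in which a large volume in the tail vein carries DNA into hepatocytes, and a Sleeping Beauty transposase integrated the transgenes. Livers were collected after a fast of 5 h. The 4 groups held 5 libraries each: tumors with the plasmids Aldafermin+MYC, FGF19+MYC or sgTrp53+MYC, the last with a CRISPR guide against Trp53 in place of the hormone, and control livers, labelled healthy and Non treated but described in the study as given an RFP plasmid. All 3 tumor groups thus carried the MYC transgene, driven by an EF1a promoter, and the livers did not. Tumors were taken when signs of disease or the end point came, so the time after injection was not the same by design, and the hepatocytes that took up no plasmid remained in the host liver.

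Gluconeogenesis makes glucose from lactate, glycerol and amino acids and, together with glycogen breakdown, lets the liver supply blood glucose during fasting. Pyruvate carboxylase (Pcx) makes oxaloacetate in mitochondria, the cytosolic (Pck1) or mitochondrial (Pck2) phosphoenolpyruvate carboxykinase converts it to phosphoenolpyruvate, and fructose-1,6-bisphosphatase (Fbp1) acts further up the path. Slc37a4 carries glucose 6-phosphate into the endoplasmic reticulum and Slc2a2 (GLUT2) carries glucose across the hepatocyte membrane. Gys2 and Pygl are the liver forms of glycogen synthase and glycogen phosphorylase. Ppargc1a (PGC-1 alpha) is a coactivator that fasting and glucagon induce through cAMP and CREB, and that activates Pck1 together with other transcription factors.

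The promoters of Pck1, Fbp1 and Pck2 are shown because Pck1 and Fbp1 were the members with the widest range among tumors and Pck2 was the only member higher in tumors than in livers. Each is the 250 bases before the RefSeq start on the GRCm38.p6 build, at chr2:173152823-173153072 (plus strand) for Pck1, chr13:62888283-62888532 (minus strand) for Fbp1 and chr14:55540016-55540265 (plus strand) for Pck2, read in the direction of transcription. Capitals mark CGTCA, the core of the cAMP response element through which CREB acts, which was searched on both strands.
Pck1: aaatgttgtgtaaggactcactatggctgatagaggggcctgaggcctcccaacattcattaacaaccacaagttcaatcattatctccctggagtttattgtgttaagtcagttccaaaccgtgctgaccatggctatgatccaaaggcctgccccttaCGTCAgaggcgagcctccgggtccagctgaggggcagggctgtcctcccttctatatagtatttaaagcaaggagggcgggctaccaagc
Fbp1: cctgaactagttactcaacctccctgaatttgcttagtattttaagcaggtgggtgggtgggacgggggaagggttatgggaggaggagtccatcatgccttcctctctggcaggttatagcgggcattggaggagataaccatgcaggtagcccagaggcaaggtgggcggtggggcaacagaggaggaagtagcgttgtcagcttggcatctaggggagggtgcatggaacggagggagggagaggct
Pck2: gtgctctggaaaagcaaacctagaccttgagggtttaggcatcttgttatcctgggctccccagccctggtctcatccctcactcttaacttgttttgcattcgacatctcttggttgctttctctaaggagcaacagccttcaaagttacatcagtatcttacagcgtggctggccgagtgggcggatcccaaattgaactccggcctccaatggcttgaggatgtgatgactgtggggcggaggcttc
The core lay in the Pck1 promoter at 90 to 86 bases before the start and in neither of the other two. RefSeq promoters were found for 8 of the 9 members (Gys2 was not in the table) with 11 starts in all, and 4 members held it in at least one of them: Pck1, Slc37a4, Pygl and Ppargc1a. Of 32851 mouse promoters of the same length, 17.77% held it. The whole element TGACGTCA, a palindrome that contains the core, was found in 0 members and in 1.546% of all promoters. A forkhead motif, TGTTTAC on both strands, was found in 0 members and in 3.166%, and the E-box CACGTG in 1 member, Pcx, and in 6.021%. These matches describe the letters of a short window and no binding was measured.

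Library depth and alignment differed by group. Reads not aligned made up 5.34% to 6.821% of the sgTrp53+MYC libraries and 15.29% to 34.04% of the others. Reads counted on genes ranged from 18004977 to 44427184 in the libraries of the Aldafermin+MYC, FGF19+MYC and liver groups, which share a count table, and from 54042455 to 66354724 in the sgTrp53+MYC libraries, which have a table of their own. Reads that fell on several genes made up 3.026% to 6.296% of the first table and 11.11% to 14.6% of the second, so in every comparison with sgTrp53+MYC tumors the genotype and the table cannot be told apart. Hepatocyte marker genes summed to 202100 to 264800 CPM in livers and 6359 to 36930 CPM in tumors, and 10 of 10 were lower in each tumor group than in livers, with no gene of the list at 0. The 9 perivenous and periportal markers summed to 15660 to 24520 CPM in livers and 447.3 to 2857 CPM in tumors, and 9 of 9 were lower in each tumor group. In these bulk libraries fewer hepatocytes and less RNA of a gene per hepatocyte cannot be told apart, and the part that the marker loss has in the results that follow was not tested.

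Pck1, Fbp1, Gys2, Slc2a2 and Pygl were lower and Pck2 was higher in each of the 3 tumor groups than in livers. Pcx was also lower in each group, by less, but the calls in Aldafermin+MYC and sgTrp53+MYC tumors were lost and the second turned direction when libraries were scaled by size alone, and the smaller decreases of Slc37a4 and Ppargc1a depended on the scaling as well. In Aldafermin+MYC tumors 1 member was higher and 8 were lower than in livers, beside 38.4% of all tested genes higher and 31.9% lower (edgeR quasi-likelihood test, adjusted p under 0.05). In FGF19+MYC tumors 1 was higher and 8 were lower, beside 36.9% and 32.9% of all genes. In sgTrp53+MYC tumors 1 was higher and 6 were lower, beside 36.9% and 33% of all genes, and the remaining 2 were Slc37a4 and Ppargc1a. The median log2 fold change of the members was -2.0, -2.19 and -1.74 in Aldafermin+MYC, FGF19+MYC and sgTrp53+MYC tumors, beside 0.13, 0.06 and 0.07 over all tested genes. The 3 comparisons share the same 5 livers.

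**Figure D1:**
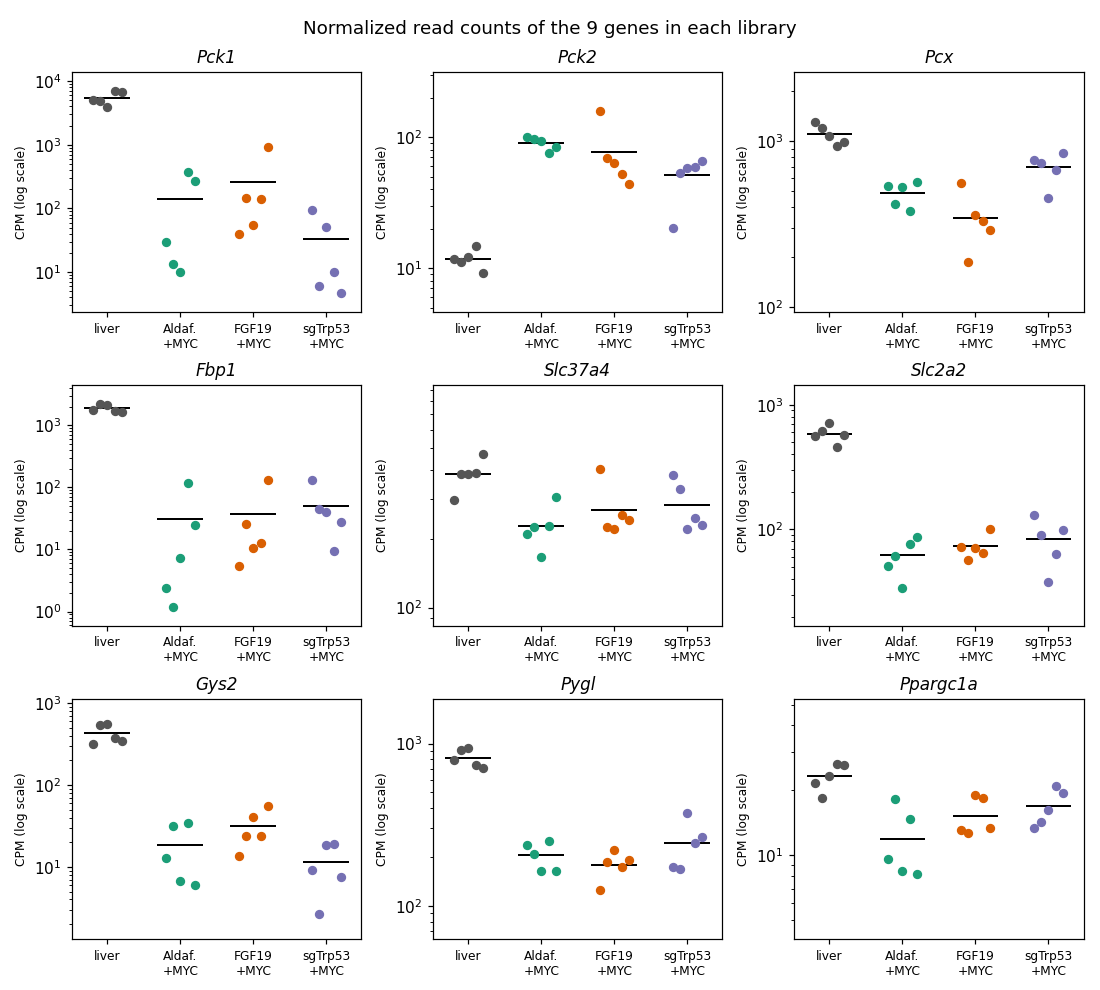
Normalized read counts (CPM, log scale) of the 9 genes in each of the 20 libraries, with 1 panel per gene, 1 point per library and a bar at the group mean. Pck1, Fbp1, Gys2, Slc2a2, Pygl and Pcx sat below every liver in all 15 tumors, Pck2 sat above every liver, and Slc37a4 overlapped the livers in each tumor group, with a direction that turned when libraries were scaled by size alone. The share of all tested genes that sat apart from the livers in this way was not counted.

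In livers the members covered a wide range of levels. Per kilobase of the canonical transcript, the mean level was 2076 CPM per kb for Pck1 and 1178 for Fbp1, followed by Pygl at 286.1, Pcx at 260.4, Slc37a4 at 184, Gys2 at 160.8 and Slc2a2 at 104.8, with Ppargc1a at 3.605 and Pck2 at 2.557 CPM per kb. In tumors, where single libraries carried the means of Pck1 and Fbp1, medians per kilobase are given. Pcx, Slc37a4 and Pygl led in Aldafermin+MYC tumors, with medians of 125.6, 107.9 and 73.16 CPM per kb, and Pck2 was at 20.21, Pck1 at 11.2 and Fbp1 at 4.53. In FGF19+MYC tumors the medians were 115.3 for Slc37a4, 77.49 for Pcx, 64.79 for Pygl and 52.39 CPM per kb for Pck1, and in sgTrp53+MYC tumors 175 for Pcx, 118.5 for Slc37a4 and 84.96 for Pygl. The ranges of neighbors among the top 3 of each tumor group overlapped, so the order within these leading genes is not firm. Fbp1, second in livers, was outside the top 3 by median in each tumor group.

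Pck1, on chromosome 2 (172994744-173001066, plus strand, GRCm39), commits oxaloacetate to glucose in the cytosol. The normalized counts of replicates 1 to 5 were 5007, 4890, 3862, 6997 and 6870 CPM in livers. They were 29.8, 13.37, 9.979, 379.4 and 272.4 CPM in Aldafermin+MYC tumors, 39.46, 147, 55.3, 139.4 and 939.9 CPM in FGF19+MYC tumors and 95.85, 5.975, 51.92, 10.06 and 4.727 CPM in sgTrp53+MYC tumors. Every tumor was below every liver, whereas the tumor groups overlapped one another. The log2 fold change against livers was -5.29 (SE 1.22, adjusted p = 0.000738) in Aldafermin+MYC, -4.39 (SE 1.17, adjusted p = 0.00252) in FGF19+MYC and -7.36 (SE 1.34, adjusted p = 7.19e-05) in sgTrp53+MYC tumors. The highest tumor of a group exceeded the lowest 38.02-fold, 23.82-fold and 20.28-fold, against 1.812-fold among livers. In each tumor group the highest tumor moved the value, which was -6.08 without Aldafermin+MYC replicate 4, -5.86 without FGF19+MYC replicate 5 and -8.25 without sgTrp53+MYC replicate 1.

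Pck2, on chromosome 14 (55777542-55788758, plus strand), makes the same product inside mitochondria. It had 11.76, 11.18, 12.19, 14.75 and 9.244 CPM in livers, 99.68, 96.82, 93.49, 75.76 and 83.43 CPM in Aldafermin+MYC tumors, 157.6, 68.96, 63.6, 52.65 and 43.9 CPM in FGF19+MYC tumors, and 20.41, 53.38, 57.84, 59.53 and 65.21 CPM in sgTrp53+MYC tumors. All tumors were above all livers. The log2 fold change was 2.93 (SE 0.33, adjusted p = 1.79e-07), 2.71 (SE 0.32, adjusted p = 4.55e-07) and 2.12 (SE 0.32, adjusted p = 7.6e-06), or 7.606-fold, 6.543-fold and 4.341-fold. The exons of Pck2 overlap those of Gm10876 on the opposite strand, and whether the counting used strand is not given in the sources used here.

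Fbp1, on chromosome 13 (63012567-63036263, minus strand), removes a phosphate from fructose 1,6-bisphosphate. Livers had 1744, 2194, 2090, 1716 and 1624 CPM, Aldafermin+MYC tumors 2.356, 1.191, 7.204, 118.7 and 24.86 CPM, FGF19+MYC tumors 5.358, 26.03, 10.46, 12.74 and 130.9 CPM, and sgTrp53+MYC tumors 132, 44.26, 40.72, 9.504 and 28.02 CPM. No tumor came near the livers, and 1 tumor in each group stood above the others. The log2 fold change was -5.93 (SE 1.21, adjusted p = 0.000246), -5.66 (SE 1.20, adjusted p = 0.000348) and -5.20 (SE 1.17, adjusted p = 0.000604) in the same order of groups. The range within a group was 99.7-fold in Aldafermin+MYC, 24.44-fold in FGF19+MYC and 13.89-fold in sgTrp53+MYC tumors, and 1.351-fold in livers. Without the highest tumor the log2 fold change was -7.72 (Aldafermin+MYC replicate 4), -7.10 (FGF19+MYC replicate 5) and -5.93 (sgTrp53+MYC replicate 1).

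Pcx, on chromosome 19 (4559902-4672189, plus strand), fell by less than Pck1 and Fbp1. Livers had 1309, 1206, 1070, 932.8 and 987.3 CPM. The values were 536.3, 419.5, 531, 376.9 and 564.6 CPM in Aldafermin+MYC, 562, 186.1, 356.3, 327.6 and 291.4 CPM in FGF19+MYC, and 769.6, 739.7, 455.7, 665 and 852.6 CPM in sgTrp53+MYC tumors. All tumors lay below all livers, and the sgTrp53+MYC tumors lay highest, with the others overlapping them. The log2 fold change was -1.18 (SE 0.23, adjusted p = 0.000182), -1.68 (SE 0.24, adjusted p = 4.13e-06) and -0.66 (SE 0.23, adjusted p = 0.0165). The exons of Pcx overlap those of Lrfn4 and Rce1 on the opposite strand.

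Of the transporters, Slc2a2 fell in all tumor groups and Slc37a4 changed little. Slc2a2, on chromosome 3 (28752051-28785508, plus strand), ranged from 457 to 715.5 CPM in livers and from 33.86 to 129.5 CPM in the tumors of all groups, without overlap. Its log2 fold change was -3.23 (SE 0.30, adjusted p = 1.57e-08) in Aldafermin+MYC, -3.00 (SE 0.30, adjusted p = 3.87e-08) in FGF19+MYC and -2.79 (SE 0.30, adjusted p = 8.57e-08) in sgTrp53+MYC tumors. Slc37a4, on chromosome 9 (44308144-44314265, plus strand), had 296.3, 384.5, 382.9, 387.5 and 469.4 CPM in livers, 209.7, 225.2, 166.8, 226.7 and 305.4 CPM in Aldafermin+MYC, 403.1, 224.4, 220.4, 253 and 240.8 CPM in FGF19+MYC, and 381.1, 329, 219.6, 247.5 and 230.1 CPM in sgTrp53+MYC tumors. Each tumor group overlapped the livers. The log2 fold change of Slc37a4 was -0.76 (SE 0.21, adjusted p = 0.00289), -0.52 (SE 0.21, adjusted p = 0.0312) and -0.45 (SE 0.21, adjusted p = 0.0584). The call in FGF19+MYC tumors was lost without any of their replicates 2, 3, 4 and 5 or liver replicate 5 (-0.50 to -0.45), and a call in sgTrp53+MYC tumors was gained without their replicate 1 or 2 or liver replicate 1 (-0.58 to -0.51). Its exons overlap those of Trappc4 on the opposite strand.

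The direction for Slc37a4 rested on the scaling. When libraries were scaled by their size alone instead of by the trimmed mean of M values (TMM), the median log2 fold change of all genes against livers moved from 0.13 to 0.97 in Aldafermin+MYC, from 0.06 to 0.91 in FGF19+MYC and from 0.07 to 0.95 in sgTrp53+MYC tumors. On that scale Slc37a4 was at 0.08, 0.30 and 0.42, above 0 but still below the median of all genes in each group. Ppargc1a was at -0.12, 0.24 and 0.42, and Pcx was at -0.34 in Aldafermin+MYC tumors (adjusted p = 0.128) and at 0.21 in sgTrp53+MYC tumors (adjusted p = 0.347), again below that median. Under library size scaling 1 member was higher and 5 lower in Aldafermin+MYC tumors, 1 and 6 in FGF19+MYC tumors, and 2 and 5 in sgTrp53+MYC tumors. On that scale 8618 of all 14333 genes were higher and 2405 lower in Aldafermin+MYC tumors. The counts over all genes were 8375 and 2453 in FGF19+MYC tumors and 8534 and 2423 in sgTrp53+MYC tumors. The direction of Pck1, Pck2, Fbp1, Slc2a2, Gys2 and Pygl against livers was the same under both scalings.

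The liver forms of both glycogen enzymes fell in all tumor groups, the synthase more than the phosphorylase. Gys2, on chromosome 6 (142368339-142418841, minus strand), had 320.4, 533.5, 562.9, 374.8 and 348.9 CPM in livers. It had 12.95, 31.5, 6.777, 34.65 and 5.977 CPM in Aldafermin+MYC, 13.45, 23.92, 40.44, 23.95 and 55.29 CPM in FGF19+MYC, and 9.29, 2.631, 18.37, 19.18 and 7.536 CPM in sgTrp53+MYC tumors. The tumors lay far below the livers and the tumor groups overlapped. The log2 fold change was -4.54 (SE 0.60, adjusted p = 1.65e-06), -3.77 (SE 0.58, adjusted p = 1.06e-05) and -5.23 (SE 0.62, adjusted p = 3.76e-07), or 23.32-fold, 13.62-fold and 37.52-fold lower. Pygl, on chromosome 12 (70237585-70278262, minus strand), was at 820.8 ± 103.4 CPM (SD, n = 5) in livers, 205.1 ± 40.66 in Aldafermin+MYC, 179.4 ± 34.74 in FGF19+MYC and 245.4 ± 83.59 in sgTrp53+MYC tumors. Its log2 fold change was -2.0 (SE 0.22, adjusted p = 1.2e-07), -2.19 (SE 0.22, adjusted p = 3.72e-08) and -1.74 (SE 0.22, adjusted p = 6.58e-07), again without overlap between any tumor and any liver.

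Ppargc1a, on chromosome 5 (51611592-51725068, minus strand), was a low-level transcript in all groups. Livers had 21.73, 18.51, 23.41, 26.56 and 26.3 CPM, Aldafermin+MYC tumors 9.667, 18.18, 8.458, 14.77 and 8.194 CPM, FGF19+MYC tumors 13.06, 12.71, 18.99, 18.37 and 13.36 CPM, and sgTrp53+MYC tumors 13.41, 14.26, 16.23, 20.86 and 19.51 CPM. The Aldafermin+MYC tumors lay below all livers, and the FGF19+MYC and sgTrp53+MYC tumors overlapped them. Its log2 fold change was -0.98 (SE 0.22, adjusted p = 0.000595), -0.61 (SE 0.22, adjusted p = 0.0186) and -0.47 (SE 0.22, adjusted p = 0.0619), the last of which passed without sgTrp53+MYC replicate 4 or liver replicate 2 (-0.55 in both), and with scaling by library size it was above 0 in FGF19+MYC and sgTrp53+MYC tumors. Pck1 differed far more between tumors and livers than Ppargc1a did, and any part of Ppargc1a in the Pck1 difference was not tested.

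**Figure D2:**
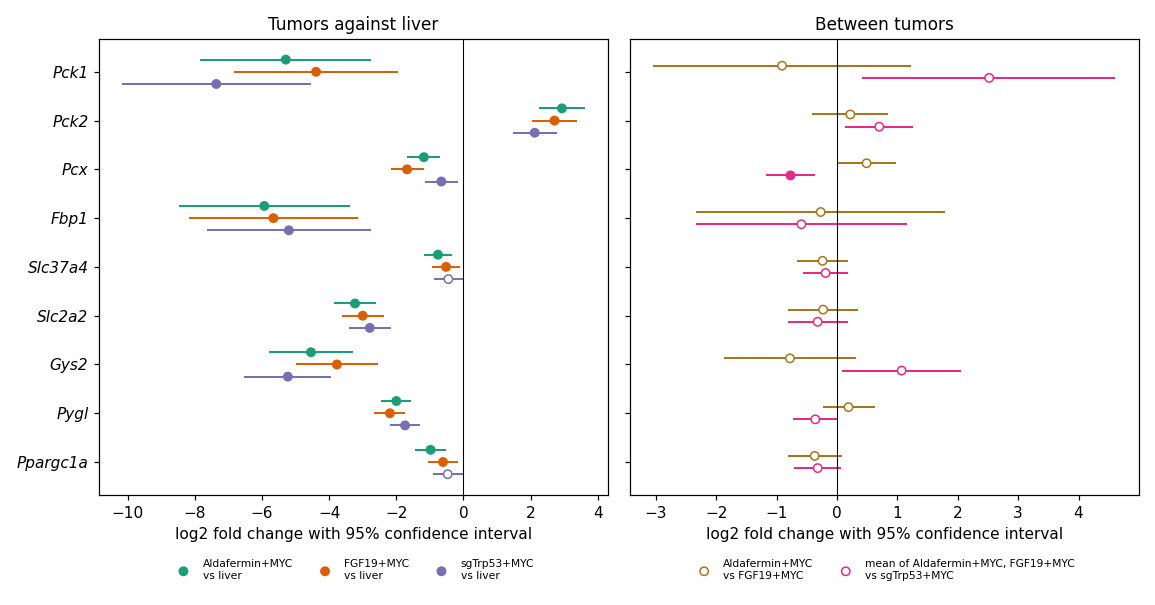
Log2 fold changes of the 9 genes with 95% confidence intervals, tumors against livers on the left and between tumor groups on the right; filled points passed an adjusted p of 0.05 in the edgeR test over all genes and open points did not. Against livers the intervals of Pck1, Fbp1 and Gys2 lay below -1.9 and that of Pck2 above 1.4, while Slc37a4, Ppargc1a and the sgTrp53+MYC value of Pcx lay close to 0 and some turned direction with scaling by library size alone; between tumor groups 1 point, Pcx, was filled.

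For 6 members the log2 ratio to a related gene was taken within each library, where scaling cancels. The second gene was a form of other tissues for Gys2, Pygl, Slc2a2 and Fbp1. It was the mitochondrial enzyme for Pck1 and a related coactivator for Ppargc1a. The ratio fell in all 3 tumor groups for 5 of the 6 pairs tested, and other gene pairs were not tested in this way. Gys1, the muscle form of glycogen synthase, was at 4.383 CPM in livers and at 22.64, 18.84 and 26.13 CPM in Aldafermin+MYC, FGF19+MYC and sgTrp53+MYC tumors. Pygb, the brain form of glycogen phosphorylase, was at 10.25 CPM in livers and at 94.21, 79.84 and 74.44 CPM in tumors. Per kilobase the mean log2 ratio of Gys2 to Gys1 was 7.08 in livers and -0.17, 1.08 and -0.95 in the tumor groups. Single tumors ranged from -1.31 to 1.17 in Aldafermin+MYC, 0.46 to 2.20 in FGF19+MYC and -2.82 to 0.25 in sgTrp53+MYC. Pygl stayed above Pygb in all tumors (mean log2 ratio 6.79 in livers and 1.62, 1.69 and 2.27 in tumors).

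The ratio of Pck1 to Pck2 lay on both sides of equal levels in each tumor group. Per kilobase it was 9.53, 9.57, 9.10, 9.68 and 10.33 on the log2 scale in livers. It was -0.94, -2.06, -2.43, 3.12 and 2.50 in Aldafermin+MYC, -1.20, 1.89, 0.60, 2.20 and 5.22 in FGF19+MYC, and 3.03, -2.36, 0.64, -1.77 and -2.99 in sgTrp53+MYC tumors. Some tumors of each group thus had more Pck2 than Pck1 transcript and others had more Pck1. Without length, the mean log2 ratio differed from livers by -9.60, -7.90 and -10.33 (two-sided exact permutation test, p = 0.00794, adjusted p = 0.0159 in each, the smallest p that 252 regroupings of 5 against 5 libraries allow). With replicate numbers as a block p was 0.0625 in each, the smallest that 5 pairs allow, so that test could not pass.

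The same p was reached for Gys2/Gys1, Pygl/Pygb, Slc2a2/Slc2a1 and Fbp1/Fbp2 in each tumor group. Of 30 tests over 6 pairs and 5 comparisons, 16 passed after adjustment. The share of other gene pairs that would pass in this way was not counted. For Gys2/Gys1 the differences from livers were -7.25, -6.00 and -8.03, for Pygl/Pygb -5.17, -5.10 and -4.53, and for Slc2a2/Slc2a1 -4.91, -4.26 and -3.90 in Aldafermin+MYC, FGF19+MYC and sgTrp53+MYC tumors. Slc2a1 (GLUT1), the transporter of most other tissues, was at 13.28 CPM in livers and 38.6, 29.17 and 36.05 CPM in tumors, and the last mean was carried by 1 tumor at 111.6 CPM, the median of that group being 15.25 CPM. For Fbp1/Fbp2 the differences were -11.12, -11.09 and -12.03, with Fbp2, the muscle form, at only 1 to 22 counts in a liver library and 36 to 2381 in a tumor, so the liver ratio is imprecise. The ratio of Ppargc1a to Ppargc1b, a related coactivator, differed from livers by -0.58, 0.40 and 0.04 and passed in no comparison.

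**Figure D3:**
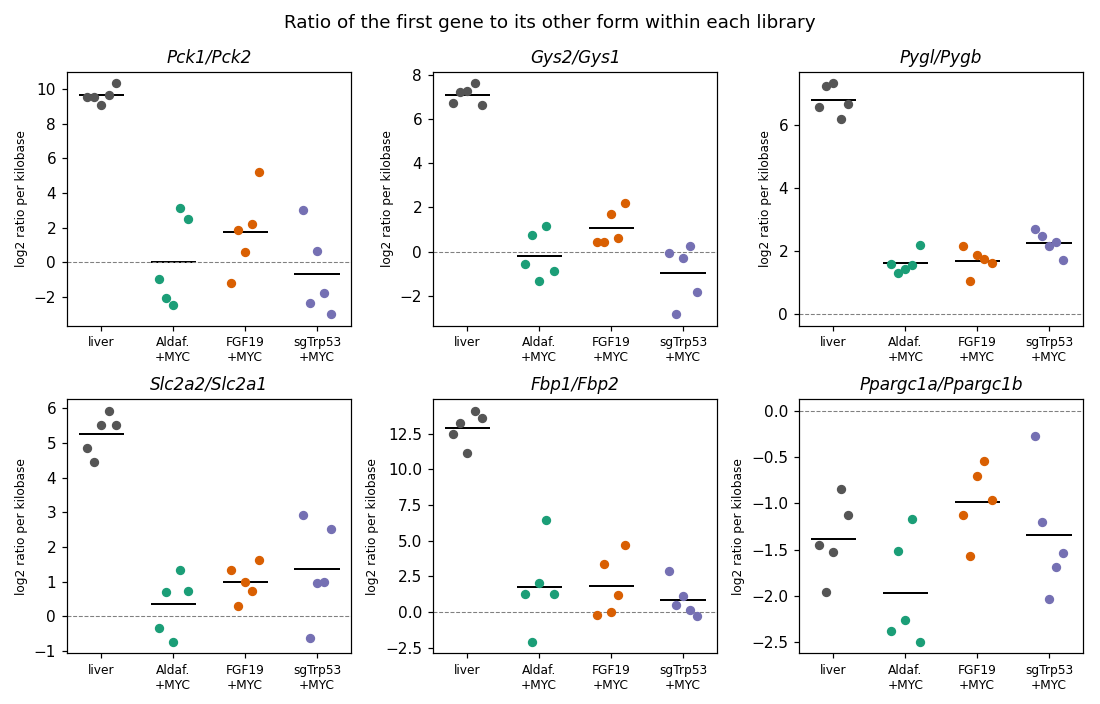
Log2 ratio per kilobase of canonical transcript of the first gene of each pair to the second, in each of the 20 libraries, with 1 point per library, a bar at the group mean and a dashed line at equal levels. All livers sat above all tumors for 5 pairs, and the ratio of Ppargc1a to Ppargc1b overlapped between the groups. The share of other gene pairs that sit apart in this way was not counted.

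Aldafermin+MYC and FGF19+MYC tumors, which differ in the hormone that was expressed, were compared gene by gene, and 0 of 9 members passed, beside 0% of all genes higher and 0% lower. Of the 14333 genes tested, 1048 had an unadjusted p under 0.05, DESeq2 called 73 genes higher and 23 lower and edgeR's likelihood ratio test 52 and 7, and with either tool 0 members passed. The log2 difference was -0.91 for Pck1 with a 95% confidence interval of -3.05 to 1.23, and -0.27 for Fbp1 with an interval of -2.33 to 1.79. These intervals allow differences of several fold in either direction. For the members with less spread the intervals were narrower: 0.22 (-0.41 to 0.85) for Pck2, 0.49 (0.01 to 0.98) for Pcx, -0.24 (-0.67 to 0.19) for Slc37a4, -0.23 (-0.82 to 0.35) for Slc2a2, -0.78 (-1.87 to 0.32) for Gys2, 0.19 (-0.24 to 0.63) for Pygl and -0.37 (-0.82 to 0.09) for Ppargc1a. Pcx had the smallest unadjusted p of the 9 (0.0462, adjusted p = 0.671). Without FGF19+MYC replicate 5 the log2 differences turned to 0.56 for Pck1 and 1.17 for Fbp1. The sign for Fbp1 also turned without Aldafermin+MYC replicate 1 (0.03) or replicate 2 (0.04).

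The 2 hormone groups, as the mean of Aldafermin+MYC and FGF19+MYC, were then compared with the sgTrp53+MYC tumors. These had a guide against Trp53 in place of a hormone and a count table of their own. The hormone, the Trp53 guide and the table cannot be told apart here. Pcx was lower in the hormone groups, by a log2 difference of -0.77 (SE 0.20, adjusted p = 0.00832), and no other member passed. This makes 0 higher and 1 lower beside 11.6% and 12.1% of all genes. The adjusted p for Pcx ranged from 0.0011 to 0.0413 over all alternatives. Its values were 186.1 to 564.6 CPM with a hormone and 455.7 to 852.6 CPM with sgTrp53, and 1 sgTrp53+MYC tumor, replicate 3, lay inside the range of the others. The difference was 2.52 (0.42 to 4.61) for Pck1 with an adjusted p of 0.075 and 0.70 (0.14 to 1.26) for Pck2 with an adjusted p of 0.0654. Both passed with DESeq2 (adjusted p = 0.025 for Pck1 and 0.0431 for Pck2) and with the likelihood ratio test. With a replicate left out the Pck1 difference ranged from 1.78 (without FGF19+MYC replicate 5, adjusted p = 0.157) to 3.41 (without sgTrp53+MYC replicate 1, adjusted p = 0.0331), and with the replicate number as a block it was 1.51 (adjusted p = 0.377). Without FGF19+MYC replicate 5, Pck2 was at 0.78 (adjusted p = 0.0408). For Gys2 the difference was 1.07 (0.09 to 2.06, adjusted p = 0.107), for Pygl -0.36 (-0.73 to 0.02), for Ppargc1a -0.32 (-0.71 to 0.06), for Slc2a2 -0.32 (-0.82 to 0.18), for Slc37a4 -0.19 (-0.56 to 0.18) and for Fbp1 -0.59 (-2.33 to 1.16). Within the libraries, the log2 ratio of Pygl to Pygb differed by -0.61 (exact permutation p = 0.0107, adjusted p = 0.02), lower in the hormone groups. That difference did not pass without sgTrp53+MYC replicate 1 (-0.50, adjusted p = 0.0635) or replicate 2 (-0.56, adjusted p = 0.0524).

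Among tumors of the same group Pck1, Fbp1 and Gys2 varied more than most genes. The standard deviation of log2 CPM within the tumor groups was 2.075 for Pck1, 1.992 for Fbp1 and 1.06 for Gys2, above those of 99.17%, 99.05% and 96.27% of the 9393 genes that averaged 10 CPM or more, whose median was 0.3446. It was 0.5789 for Pck2, 0.534 for Slc2a2, 0.4145 for Pcx, 0.3742 for Ppargc1a, 0.3661 for Pygl and 0.3401 for Slc37a4. In livers the standard deviation of Fbp1 was 0.1908, above that of 46.04% of genes, and that of Pck1 was 0.3628, above that of 85.32%.

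The tumors with the most Fbp1 were also those with the most zonal hepatocyte markers. In Aldafermin+MYC replicate 4 the 9 perivenous and periportal markers summed to 2045 CPM, against 471.8 to 832.3 CPM in the other tumors of that group. In FGF19+MYC replicate 5 they summed to 2857 CPM against 447.3 to 772.5 CPM, and in sgTrp53+MYC replicate 1 to 1804 CPM against 506.2 to 951.8 CPM. In each of the 3 groups this tumor had the highest Pck1, the highest Fbp1 and the lowest Pck2 of the 5. Relative to the liver mean, these 3 tumors reached 10.31%, 14.4% and 9.092% for the zonal markers, 6.336%, 6.988% and 7.044% for Fbp1, and 6.867%, 17.01% and 1.735% for Pck1. In the other tumors of the 3 groups the medians were 2.567%, 3.364% and 2.834% for the zonal markers, 0.2551%, 0.6189% and 1.835% for Fbp1, and 0.3907%, 1.762% and 0.1451% for Pck1. The part of the zonal markers in the Fbp1 and Pck1 levels was not tested. With the 3 tumors left out, an alternative chosen after seeing the data, 9, 8 and 8 members passed against livers in Aldafermin+MYC, FGF19+MYC and sgTrp53+MYC tumors. Of the 14129 genes tested there, 5540 were higher and 4497 lower than in livers in Aldafermin+MYC tumors. The counts were 5290 and 4668 in FGF19+MYC and 5173 and 4654 in sgTrp53+MYC tumors. Pcx was the 1 member that passed between hormone and sgTrp53 tumors, where 1663 of all genes were higher and 1629 lower.

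Across the 15 tumors, with each value taken as the deviation from its group mean, Pck1 rose with Fbp1 (Pearson r = 0.822, permutation p = 0.00133, adjusted p = 0.0239; Spearman rho = 0.718, p = 0.0122, adjusted p = 0.12). Pck1 and Pck2 ran in opposite directions (r = -0.634, permutation p = 0.00089, adjusted p = 0.0239; rho = -0.611, p = 0.00265, adjusted p = 0.0954). Of 36 pairs of members, 4 passed by Pearson's r after adjustment and 0 by Spearman's rho, and the other two were Pck2 with Fbp1 (r = -0.6, permutation p = 0.00459, adjusted p = 0.0493; rho = -0.579, p = 0.0133, adjusted p = 0.12) and Gys2 with Pygl (r = 0.741, permutation p = 0.00548, adjusted p = 0.0493; rho = 0.607, p = 0.0254, adjusted p = 0.149). Leaving out the 2 tumors farthest from the median of the first gene gave r = 0.71 for Pck1 with Fbp1, -0.58 for Pck1 with Pck2, -0.572 for Pck2 with Fbp1 and 0.658 for Gys2 with Pygl. Within the first count table, over the 10 tumors with a hormone, the coefficients were r = 0.89 and rho = 0.782 for Pck1 with Fbp1, -0.593 and -0.673 for Pck1 with Pck2, -0.578 and -0.697 for Pck2 with Fbp1, and 0.804 and 0.733 for Gys2 with Pygl. The permutation p of r was 0.00364, 0.031, 0.0252 and 0.013 and that of rho 0.0285, 0.0201, 0.0137 and 0.0265, and 0 of 36 pairs passed after adjustment by either coefficient (adjusted p = 0.131 for r of Pck1 with Fbp1 and 0.205 to 0.224 for the others).

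**Figure D4:**
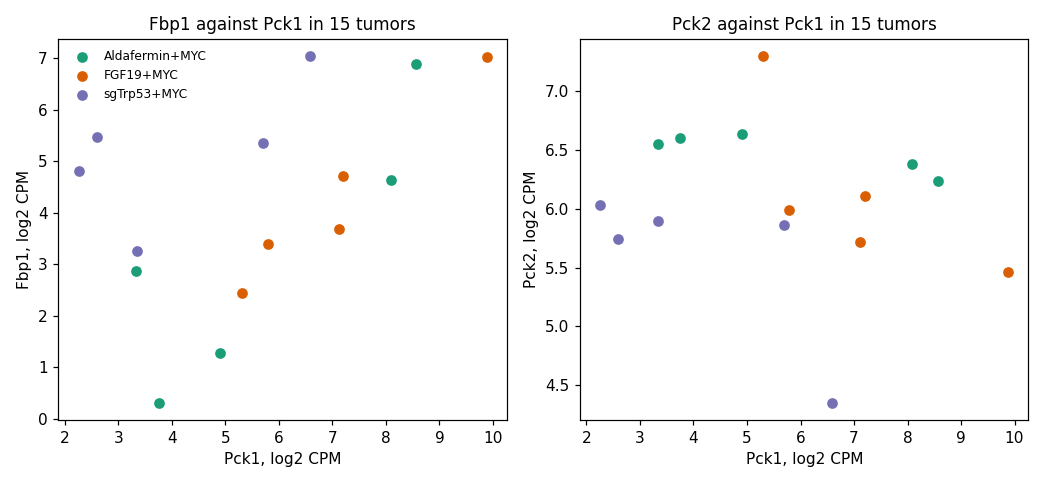
Fbp1 (left) and Pck2 (right) against Pck1 in the 15 tumors, all in log2 CPM, with 1 point per tumor colored by group. Fbp1 was high where Pck1 was high, the tumor with the lowest Pck2 of each group was the one with the highest Pck1, and the groups overlapped.

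Other genes of the pathways were taken from 5 lists by function, of which 80 of 82 genes were tested. Against livers 17 were higher and 42 lower in Aldafermin+MYC, 15 and 43 in FGF19+MYC, and 18 and 42 in sgTrp53+MYC tumors with TMM scaling. Of all tested genes 38.4%, 36.9% and 36.9% were higher and 31.9%, 32.9% and 33% lower. The median log2 fold changes of the list genes were -0.54, -0.61 and -0.52, beside 0.13, 0.06 and 0.07 over all tested genes. With scaling by library size alone the list counts were 30 and 23, 33 and 25, and 32 and 19. On that scale 8618 of all 14333 genes were higher and 2405 lower in Aldafermin+MYC tumors. The counts over all genes were 8375 and 2453 in FGF19+MYC and 8534 and 2423 in sgTrp53+MYC tumors. The balance of directions thus depended on the scaling, in the lists and over all genes. Of the list genes that passed, 7 of 59, 7 of 58 and 12 of 60 turned direction with that scaling, among those named here Mdh1 (0.14), Foxo1 (0.23) and Crebbp (0.02) in sgTrp53+MYC tumors. The remaining enzymes of gluconeogenesis, most of which also serve glycolysis, moved both ways, with 10 of 20 higher and 7 lower in Aldafermin+MYC, 7 and 8 in FGF19+MYC, and 9 and 8 in sgTrp53+MYC tumors. Got1, the cytosolic aspartate aminotransferase, changed by -2.57, -2.60 and -2.79 on the log2 scale. Mdh1, the cytosolic malate dehydrogenase, changed by -1.19, -1.66 and -0.72 and Slc25a10, the mitochondrial dicarboxylate carrier, by -1.53, -1.93 and -2.56. Eno3, the muscle enolase, at 6.205 CPM in livers, was higher in sgTrp53+MYC tumors (1.35, adjusted p = 0.000538). However, 1 tumor of that group, replicate 2, was at 36.17 CPM against a group median of 10.58 CPM, and without it the value was 0.80. The medians of Eno3 were 10.2 and 9.103 CPM in Aldafermin+MYC and FGF19+MYC tumors (0.65 and 0.53, not passed).

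The glycogen genes are given beside 38.4%, 36.9% and 36.9% of all genes higher and 31.9%, 32.9% and 33% lower in the same 3 comparisons, and with TMM scaling, on which the balance of directions rests. Of 12 tested synthesis genes 8, 7 and 6 were lower and 3, 3 and 3 higher in Aldafermin+MYC, FGF19+MYC and sgTrp53+MYC tumors. Ppp1r3b, which targets a phosphatase to glycogen in liver, fell by 4.64, 3.92 and 2.35 on the log2 scale (-5.31 without Aldafermin+MYC replicate 4 and -4.65 without FGF19+MYC replicate 5), the branching enzyme Gbe1 by 2.67, 2.28 and 1.83, and Ugp2, which makes UDP-glucose, by 2.65, 2.34 and 1.93. Gys1 was higher by 2.36, 2.10 and 2.57. Of 11 tested breakdown genes 6, 8 and 7 were lower and 2, 1 and 1 higher: Stbd1, which binds glycogen, fell by 1.82, 1.85 and 1.31, whereas Pygb was higher by 3.20, 2.97 and 2.86.

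Of 28 regulators that answer to fasting or insulin, 16, 15 and 16 were lower and 0, 2 and 2 higher with TMM scaling, beside 31.9%, 32.9% and 33% of all genes lower and 38.4%, 36.9% and 36.9% higher. The glucagon receptor Gcgr fell by 2.09, 1.92 and 2.27, Cebpa by 2.31, 2.15 and 1.87, Klf15, a fasting factor, by 1.95, 1.72 and 2.13, and Foxo1, which insulin restrains, by 1.34, 1.27 and 0.69. Pik3r1, the regulatory subunit of PI3-kinase, fell by 1.49, 1.60 and 0.95. Crebbp, a coactivator of CREB, passed in sgTrp53+MYC tumors (-0.88, adjusted p = 0.0022) and not in the other groups (-0.45, which passed at -0.57 without Aldafermin+MYC replicate 2, and 0.02). Of 9 genes of glucose uptake and phosphorylation 5 were lower in each tumor group and 2, 2 and 3 were higher. Gckr fell by 2.21, 2.26 and 3.44, while Hk2, a hexokinase of muscle and many tumors, rose from 1.823 CPM in livers to 35.18, 42.16 and 36.1 CPM (4.27, 4.53 and 4.31 on the log2 scale). Khk, the fructokinase, fell by 2.83, 2.26 and 1.57 and Pfkfb1, which sets fructose 2,6-bisphosphate in liver, by 1.23, 1.10 and 1.99.

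Between Aldafermin+MYC and FGF19+MYC tumors 0 of the 80 list genes passed. Between the mean of both and sgTrp53+MYC tumors 8 were higher and 10 lower in the quasi-likelihood test, beside 11.6% and 12.1% of all genes, and the split was 7 and 16 with median-of-ratios size factors and 4 and 12 with library size alone. Over all 14333 genes the split was 1504 and 1953 with median-of-ratios size factors and 1461 and 1942 with library size alone. Ppp1r3b was lower in the hormone groups (-1.93, adjusted p = 0.00423), as were Gbe1 (-0.65, adjusted p = 0.00343) and Mdh1 (-0.70, adjusted p = 0.00301). Khk (-0.98, adjusted p = 0.0244), Foxo1 (-0.62, adjusted p = 0.0185) and Ugp2 (-0.57, adjusted p = 0.036) were lower as well. The calls of Khk, Foxo1 and Ugp2 were lost without single libraries: Khk was at -0.54 without sgTrp53+MYC replicate 1 and -0.94 without replicate 2, Foxo1 at -0.50 without sgTrp53+MYC replicate 3 and -0.52 without replicate 5, and Ugp2 did not pass without any one of 8 tumors, at -0.34 without sgTrp53+MYC replicate 1. Slc25a10 (0.83, adjusted p = 0.000738), Pfkfb1 (0.83, adjusted p = 0.000918) and Gckr (1.21, adjusted p = 0.00618) were higher. Fbp2 was lower in the hormone groups (by 4.587-fold, adjusted p = 0.00386), at 4.101 and 6.245 CPM. It was at 23.22 CPM in sgTrp53+MYC tumors and 0.3333 CPM in livers.

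For each member the gene with the most similar pattern was sought over the 20 libraries, by the root mean square difference of log2 CPM after centering. The search covered genes outside the members that averaged 10 CPM or more. For Pck1 the nearest gene was Tat, the tyrosine aminotransferase of liver (0.827, against a median of 3.574 over the genes searched). For Fbp1 it was Orm1, an acute phase protein (0.6719, median 3.414). For Gys2 it was Rapgef4 (0.6119), for Slc2a2 Nudt12 (0.3173), for Pygl Maob, a monoamine oxidase (0.1682), and for Pck2 the nucleoporin Nup62 (0.4287). For Pcx it was Gm15163 (0.3397), for Slc37a4 Mcts1 (0.1659) and for Ppargc1a Gm5345 (0.2267).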

How the data were processed

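The authors extracted RNA from individual tumors and livers, made TruSeq stranded mRNA libraries, sequenced paired reads of 150 bases, aligned them to Mm39 (HISAT2) and assigned them to RefSeq genes (htseq-count). bcl2fastq 2.20.0.422 is named in the submitters' processing notes. The deposited values are raw counts per gene symbol, without normalization or filtering, in 2 tables. The 5 summary lines were removed, and 0 sample columns were left out. Groups came from the sample labels, and the tumors came from separate mice per the study's methods.

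The counts of the 14333 genes at 1 CPM or more in 5 or more libraries were normalized by TMM in edgeR 4.0.16 (R 4.3.3) and fitted with one quasi-likelihood model over the 4 groups, with Benjamini-Hochberg adjustment over all genes and a threshold of 0.05. Confidence intervals are at 95%. CPM values are on the TMM scale, and levels per kilobase use the GENCODE canonical transcript. Ratios were log2 of counts plus 0.5 and were tested by exact permutation with adjustment over 30 tests (Python 3.11.15, SciPy 1.17.1). Correlations used 100000 permutations within groups. The members, the 5 pathway lists and the marker lists were chosen with earlier results of these data known. The genes named were all members, the second gene of each ratio, the nearest gene of each member and, of each list, the 3 genes with the largest change in sgTrp53+MYC tumors against livers and the 3 with the largest between hormone and sgTrp53 tumors, among those that passed and averaged 10 CPM or more. Some genes that meet this rule are not reported here by name. The script for the model was tested on simulated data.

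Against livers, the other marker lists were as follows in Aldafermin+MYC, FGF19+MYC and sgTrp53+MYC tumors. Of 5 cholangiocyte markers 2, 0 and 0 were lower and 0, 0 and 1 higher. Of 5 endothelial markers 3, 2 and 3 were lower. Of 7 stellate and fibroblast markers 3 were higher and 3 lower in each group, of 6 macrophage markers 4, 3 and 5 were lower and 1 higher, and 1 of 7 lymphocyte markers was tested and was not called. Alternatives were DESeq2 1.42.0, edgeR's likelihood ratio test, other size factors, other filters, the compared groups alone, the replicate number as a block and each replicate left out.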

Additional observations from a re-analysis of the deposited data

Results flagged for a closer look

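In 36 groups of 5 libraries (9 genes in 4 groups) 2 held a library far from the others by Dixon's criterion, where chance gives about 1.8. The Pck2 level of sgTrp53+MYC replicate 1 was 4.35 on the log2 CPM scale, or 20.41 CPM against 53.38 to 65.21 CPM in the other 4 tumors. It is the tumor of that group with the highest zonal hepatocyte markers. The Slc37a4 level of FGF19+MYC replicate 1 was 8.66 on the log2 CPM scale, or 403.1 CPM, inside the range of the livers. The other tumors of the group had 220.4 to 253 CPM. This library had the fewest reads on genes of all libraries (18004977) and the highest share of reads not aligned (34.04%). It also had the highest Pck2 (157.6 CPM) and Pcx (562 CPM) of its group.

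The difference of Pcx from livers was not the same with a hormone and with sgTrp53: the log2 difference between the 2 was -0.77 (SE 0.20, edgeR adjusted p = 0.00832). The sgTrp53+MYC libraries have a count table of their own, so the genotype and the table cannot be told apart.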

How the results depend on the processing

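Against livers, the direction and the call of Pck1, Pck2, Fbp1, Slc2a2, Gys2 and Pygl were the same under all alternatives run. Pcx in Aldafermin+MYC tumors lost its call with library size scaling (-0.34, adjusted p = 0.128). Pcx in sgTrp53+MYC tumors moved to 0.21 with library size scaling (adjusted p = 0.347) and to -0.37 without a filter on low counts (adjusted p = 0.23). Slc37a4 reversed with library size scaling, to 0.08, 0.30 and 0.42 in Aldafermin+MYC, FGF19+MYC and sgTrp53+MYC tumors, the last with an adjusted p of 0.0261, and Ppargc1a reversed to 0.24 in FGF19+MYC and 0.42 in sgTrp53+MYC tumors. Without a filter Slc37a4 (-0.34) and Ppargc1a (-0.43) lost their calls in FGF19+MYC tumors, and DESeq2 called both in sgTrp53+MYC tumors (-0.48 and -0.51).

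Between hormone and sgTrp53 tumors, 1 member was called in the quasi-likelihood test, 3 with DESeq2 and 3 with the likelihood ratio test, and 1 to 2 with a replicate left out. Over all genes tested, 1663 were higher and 1736 lower in the quasi-likelihood test. The counts were 1881 and 2258 with DESeq2 and 1781 and 1838 with the likelihood ratio test. DESeq2 called 28 pathway genes there in place of 18, and leaving out a replicate gave 13 to 23. With a replicate left out, Pck1 between Aldafermin+MYC and FGF19+MYC tumors ranged from -1.70 to 0.56, Fbp1 from -2.06 to 1.17, and Fbp1 between hormone and sgTrp53 tumors from -1.48 to 0.14. The ratio Fbp1/Fbp2 between Aldafermin+MYC and FGF19+MYC tumors ranged from -1.20 to 0.93 and Pygl/Pygb from -0.23 to 0.04. Between hormone and sgTrp53 tumors Gys2/Gys1 ranged from 0.94 to 1.71, Pygl/Pygb from -0.75 to -0.50 and Ppargc1a/Ppargc1b from -0.30 to 0.14. Ppargc1a/Ppargc1b ranged from -0.23 to 0.21 in sgTrp53+MYC tumors against livers and from -1.18 to -0.85 between Aldafermin+MYC and FGF19+MYC tumors. With the tumor highest in zonal markers of each group left out, Pygl/Pygb between hormone and sgTrp53 tumors was -0.49 (exact permutation adjusted p = 0.114), and Ppargc1a/Ppargc1b reversed to -0.23 in sgTrp53+MYC tumors against livers and to 0.04 between hormone and sgTrp53 tumors. The cause of these changes was not tested, beyond the smaller number of libraries.

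The replicate numbers share only a number: of 30 same-numbered pairs of libraries from different groups 6 had a correlation of deviations over 0.1 (range -0.333 to 0.333). With the replicate block 9, 9 and 8 members were called against livers, and Slc37a4 in sgTrp53+MYC tumors was -0.48 (adjusted p = 0.049). Of all 14333 genes 5407 were then higher and 4629 lower in Aldafermin+MYC tumors. The counts were 5201 and 4741 in FGF19+MYC and 5123 and 4858 in sgTrp53+MYC tumors. Against livers the block moved Pck1 to -6.14 in Aldafermin+MYC and -5.00 in FGF19+MYC tumors and Fbp1 to -6.87 in Aldafermin+MYC tumors, and between hormone and sgTrp53 tumors it moved Pck1 to 1.51 and Fbp1 to -1.48. No isoform ratio could pass with the block, whose exact test of 5 pairs gives no p under 0.0625. Depth limits Fbp2 in livers, at 1 to 22 counts.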
